A study of Mus musculus with 71 samples.

Results

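RING1B occupancy was profiled by chromatin immunoprecipitation and sequencing (ChIP) in mouse embryonic stem cells (ESC) that expressed either the CBX7-CaPS form of CBX7 or wild-type CBX7 (WT). The comparison holds 6 of the 71 samples of the series, 3 CaPS libraries and 3 WT libraries, numbered by experiment 1, 2 and 3. All 6326 intervals of the deposited RING1B table were taken, with the value of each single library and without the columns that pool the replicates. The cells are the J1 line at day 0, grown on a feeder layer of mouse embryonic fibroblasts with serum and the cytokine LIF, and CaPS and WT cells share these conditions. From the series title, the CaPS form carries a Polycomb domain found in committed cells. The labels do not say whether each library comes from its own culture or clone, so p-values rest on variation between these libraries, which may be technical. In limma that variation is the one usual for intervals of the same level (below). Feeder cells were part of the culture, and their share in each library was not measured.

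Polycomb repressive complexes keep developmental genes silent. PRC2 methylates histone H3 at lysine 27 (H3K27me3), CBX proteins such as CBX7 dock PRC1 on that mark, and RING1B, the ubiquitin ligase of PRC1, modifies histone H2A there. In ESC these complexes sit on CpG islands at the promoters of transcription factors, signalling genes and neuronal genes that the cells do not use. RING1B is shared by PRC1 forms with a CBX subunit and by forms without one, and forms without one also sit at CpG islands that lack H3K27me3.

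Sequences at the intervals show this setting. A RefSeq promoter window of the annotated gene, 250 bases before to 50 bases after the transcription start on GRCm38.p6, lay wholly inside 1932 intervals. Those windows held a median of 22 CG pairs in 300 bases, against 7 in all 32851 RefSeq promoter windows of that table. Among the 9 intervals called lower in CaPS (below), a window was found for Cdh8 and Pparg, which are printed with Pcdh9, an interval of the next rank, with Hoxa6 from the strongest interval of the table, and with Igfbp3, one of the few stronger intervals with higher values in CaPS in every experiment. Capitals mark each CG pair. The windows are Cdh8 at chr8:99416422-99416721 on the minus strand with 21 CG pairs, Pparg at chr6:115360894-115361193 on the plus strand with 44, Pcdh9 at chr14:93890620-93890919 on the minus strand with 19, Hoxa6 at chr6:52208623-52208922 on the minus strand with 26, and Igfbp3 at chr11:7213874-7214173 on the minus strand with 37.
Cdh8: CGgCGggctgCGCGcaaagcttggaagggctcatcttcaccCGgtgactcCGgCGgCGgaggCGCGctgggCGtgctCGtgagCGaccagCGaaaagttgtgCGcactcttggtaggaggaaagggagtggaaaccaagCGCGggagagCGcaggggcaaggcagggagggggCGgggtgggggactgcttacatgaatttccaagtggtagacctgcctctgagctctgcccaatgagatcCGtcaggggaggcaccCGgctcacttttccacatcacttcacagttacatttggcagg
Pparg: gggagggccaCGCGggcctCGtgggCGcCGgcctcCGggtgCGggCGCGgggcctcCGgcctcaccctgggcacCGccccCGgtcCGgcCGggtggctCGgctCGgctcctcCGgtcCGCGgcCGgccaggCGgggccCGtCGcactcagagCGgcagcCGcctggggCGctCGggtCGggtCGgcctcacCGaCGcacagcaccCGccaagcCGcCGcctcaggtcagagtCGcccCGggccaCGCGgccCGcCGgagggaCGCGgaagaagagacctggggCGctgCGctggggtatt
Pcdh9: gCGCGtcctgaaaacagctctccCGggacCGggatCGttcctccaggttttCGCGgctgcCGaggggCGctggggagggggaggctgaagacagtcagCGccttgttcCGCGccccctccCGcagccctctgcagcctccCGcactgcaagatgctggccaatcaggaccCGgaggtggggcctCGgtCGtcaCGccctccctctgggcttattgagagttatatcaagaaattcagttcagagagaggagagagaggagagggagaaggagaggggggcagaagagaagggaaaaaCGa
Hoxa6: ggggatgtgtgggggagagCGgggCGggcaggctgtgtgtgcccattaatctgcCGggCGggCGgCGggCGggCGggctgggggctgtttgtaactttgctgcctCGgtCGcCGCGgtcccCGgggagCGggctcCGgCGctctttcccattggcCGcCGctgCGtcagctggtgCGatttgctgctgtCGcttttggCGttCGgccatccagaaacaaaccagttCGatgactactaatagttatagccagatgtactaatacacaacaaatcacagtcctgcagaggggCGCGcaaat
Igfbp3: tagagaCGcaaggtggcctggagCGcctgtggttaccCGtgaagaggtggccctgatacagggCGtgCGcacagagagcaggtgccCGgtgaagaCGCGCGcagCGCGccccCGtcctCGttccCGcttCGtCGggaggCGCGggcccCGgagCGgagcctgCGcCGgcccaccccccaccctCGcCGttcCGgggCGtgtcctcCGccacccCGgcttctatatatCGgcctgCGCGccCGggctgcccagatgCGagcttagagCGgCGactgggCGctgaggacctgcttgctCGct

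The 532 windows with the fewest CG pairs, 1 to 15, had median log2 ratios of -0.72, -1.46 and -0.19 in experiments 1, 2 and 3. The 478 with the most, 30 to 64, had -0.85, -1.17 and -0.19, so the order differed between experiments 1 and 2.

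RING1B at these intervals was lower in CaPS than in WT in experiments 1 and 2 and nearly level in experiment 3. Values are tags (sequenced fragments) in the interval per 10 M (10000000) tags of the library. The CaPS libraries of experiments 1, 2 and 3 had 3.47%, 8.20% and 8.34% of their tags inside the intervals, against 6.57%, 19.3% and 9.45% in WT. The means were 6.67% ± 2.77 in CaPS and 11.8% ± 6.70 in WT (SD, n = 3 each). Both lowest shares belonged to experiment 1, and the WT library of experiment 2 stood apart from the others. The log2 ratio of CaPS to WT shares was -0.92, -1.24 and -0.18, all below 0, and an exact two-sided sign-flip permutation test over the 3 experiments gave p = 0.25, the smallest that design allows. The median interval held 12.18, 22.46 and 24.36 tags per 10 M in CaPS and 14.81, 68.70 and 21.38 in WT. The median log2 ratio was -0.53, -1.42 and 0.00 by experiment (exact sign-flip p = 0.5). Values were below WT at 71.7%, 96.5% and 50% of intervals in the 3 experiments.

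**Figure D1:**
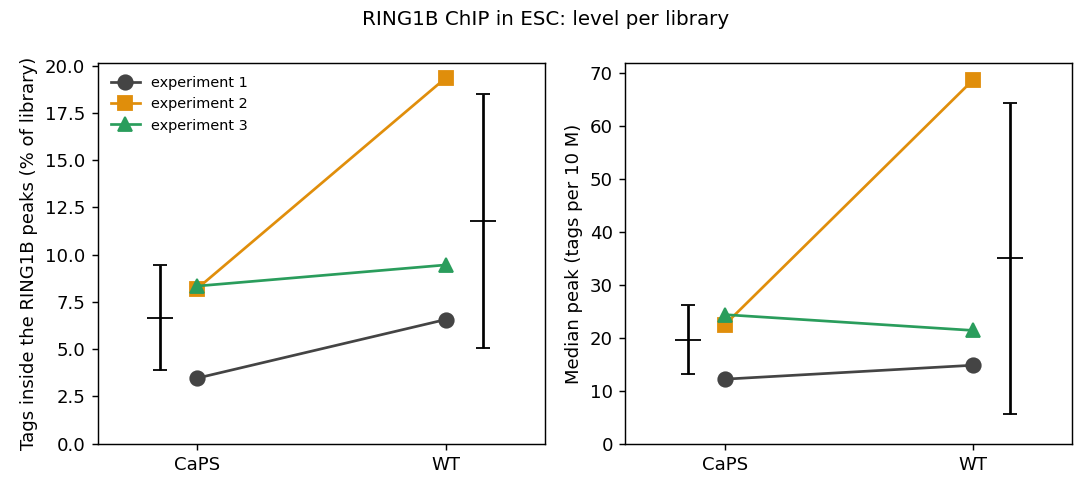
Share of tags inside the 6326 intervals (left, % of each library) and median interval value (right, tags per 10 M) in the CaPS and WT libraries; lines join the libraries of 1 experiment and bars give mean ± SD (n = 3). The share was lower in CaPS in each experiment, and the WT library of experiment 2, at 19.3% and 68.70 tags per 10 M, lay far above the other 5.

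Depth differed between libraries and sets the precision. Totals stated in the file headers were 5.33, 2.23 and 27.09 M tags in CaPS and 7.09, 5.24 and 19.18 M tags in WT. An interval of median value rested on 6.50, 5.00 and 66.0 tags in CaPS and on 10.5, 36.0 and 41.0 tags in WT. In CaPS 114, 317 and 0 intervals had no tag, and in WT 39, 0 and 0. A count of 0 allows up to 3 tags, or 13.5 tags per 10 M in the shallowest library, CaPS of experiment 2. The names of the tag directories in the headers differ, with "norm" in WT 1 and CaPS 2, "markdup" in CaPS 1 and "rmdup" in WT 2, WT 3 and CaPS 3. The part of these differences in the results was not tested. Log2 levels correlated across intervals with Pearson's r between 0.87 and 0.96 for all 15 pairs of libraries.

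Intervals were tested with limma on log2(value + 1), with the experiment as a block and Benjamini-Hochberg adjustment over all 6326. At an adjusted p under 0.05, 9 intervals were lower in CaPS, or 0.142% of those tested, and none was higher. At an unadjusted p under 0.05 the counts were 1174 lower (18.6%) and 0 higher, a split that depends on the scaling: scaling each library to the same sum over the intervals gave 203 lower and 249 higher, and the TMM factors of edgeR gave 289 lower and 140 higher. edgeR on recovered read ends (0.5 tag each) called 5 lower (0.079%) and 0 higher, and DESeq2, which adjusted 1543 intervals, called 11 lower (0.713%) and 3 higher (0.194%). The limma count rests on the set of experiments: without experiment 1 it was 0 (30 at an unadjusted p under 0.05), without experiment 2 it was 16, and without experiment 3 it was 1098 (17.4%). Without the block it was 0 (134 at an unadjusted p under 0.05). The median log2 change over all intervals was -0.67, or 0.629-fold, so each change below stands on a shift of that size. Scaling to the same sum moved that median to 0.074 and the calls to 3 lower and 3 higher (0.0474% each), while TMM factors moved it to -0.024 and DESeq2 size factors to -0.010. The spread in limma's p is the spread usual for intervals of the same level, not the interval's own.

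**Figure D2:**
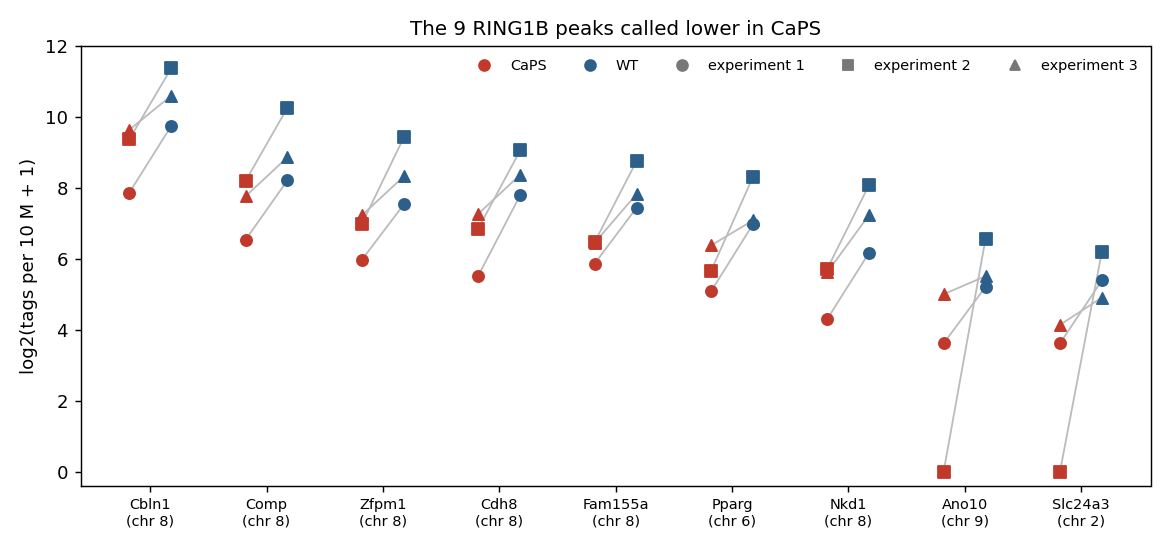
Level of RING1B, as log2(tags per 10 M + 1), at the 9 called intervals in the CaPS (red, left of each pair) and WT (blue, right) libraries; symbols give the experiment and grey lines join its libraries. Every CaPS point lies below every WT point of the same interval, and Ano10 and Slc24a3 have 0 in CaPS of experiment 2.

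The 9 intervals lay at Cdh8, Cbln1, Comp, Fam155a, Nkd1 and Zfpm1 on chromosome 8, at Pparg on chromosome 6, at Ano10 on chromosome 9 and at Slc24a3 on chromosome 2. Chromosome 8 held 6 of the 9 and 6.15% of all intervals. In all 9 every CaPS library was below every WT library, which held for 8.19% of all intervals (518). All 9 overlapped an H3K27me3 peak both by ChIP and by CUT&RUN. So did 38.5% of all intervals (2435), and 1114 of the 1265 in the fifth with the highest mean level.

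On chromosome 8, Cdh8, a cadherin of neuronal adhesion (8:99414130-99417773, promoter), had 44.99, 114.54 and 152.80 tags per 10 M in the CaPS libraries of experiments 1, 2 and 3, against 220.08, 530.51 and 329.26 in WT. Its log2 change was -1.86 (SE 0.40, limma adjusted p = 0.0239), or 0.276-fold, and -1.19 relative to the median of all intervals. Cbln1, a secreted organiser of cerebellar synapses (8:87467009-87474032, last intron), was the strongest of the 9, with 231.49, 658.06 and 793.89 tags per 10 M in CaPS and 853.50, 2639.22 and 1545.92 in WT. It changed by log2 -1.61 (SE 0.38, limma adjusted p = 0.0242), and it is the only one of the 9 that was still called after scaling to the same sum (log2 -0.84, limma adjusted p = 0.00477). Fam155a, which codes for an auxiliary subunit of the sodium leak channel of neurons (8:9769344-9772685, promoter), had 57.17, 87.59 and 86.36 tags per 10 M in CaPS and 172.11, 429.37 and 225.50 in WT. The CaPS values of Fam155a were close together, and its log2 change was -1.74 (SE 0.41, limma adjusted p = 0.0242).

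Nkd1 had the largest fall of the 6 intervals on chromosome 8. Nkd1, an antagonist of Wnt signalling that binds Dishevelled (8:88520289-88523041, exon 2), had 18.74, 51.66 and 48.16 tags per 10 M in CaPS and 71.24, 270.98 and 150.16 in WT. Its log2 change of -1.95 (SE 0.46, limma adjusted p = 0.0242) was even across experiments, at log2 ratios of -1.87, -2.37 and -1.62. Comp, a protein of cartilage matrix (8:70372819-70377828, intron 4), had 91.85, 291.97 and 215.91 tags per 10 M in CaPS and 295.55, 1225.15 and 464.56 in WT, a log2 change of -1.61 (SE 0.38). Zfpm1, a zinc finger partner of GATA factors in blood cells also called FOG1 (8:122282638-122285513, intron 1), had 61.86, 125.77 and 148.55 tags per 10 M in CaPS and 184.10, 685.09 and 319.61 in WT, a log2 change of -1.70 (SE 0.40). Both passed with a limma adjusted p of 0.0242.

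Pparg, the nuclear receptor that directs fat cell differentiation (6:115360288-115362505, promoter), had 32.80, 49.41 and 81.94 tags per 10 M in CaPS and 124.15, 313.92 and 134.26 in WT. Its log2 change was -1.75 (SE 0.44, limma adjusted p = 0.0490). At the 2 weakest called intervals the size of the change rests on experiment 2. Ano10, of the anoctamin family of membrane proteins (9:122292913-122294480, intron 1), had 11.25, 0 and 31.00 tags per 10 M in CaPS and 35.97, 93.51 and 44.58 in WT. Slc24a3, a sodium, calcium and potassium exchanger (2:145168035-145168940, intron 1), had 11.25, 0 and 16.61 tags per 10 M in CaPS and 40.91, 72.52 and 28.94 in WT. Their log2 changes were -2.89 for Ano10 (limma SE 0.68, limma adjusted p = 0.0242) and -2.91 for Slc24a3 (limma SE 0.73, limma adjusted p = 0.0490). The SE from their own libraries was 1.86 for Ano10 and 1.67 for Slc24a3, and their log2 ratio in experiment 2 rests on a count of 0 in CaPS. Without experiment 2 the log2 change was -1.05 for Ano10 (limma adjusted p = 0.277) and -1.27 for Slc24a3 (limma adjusted p = 0.163), against -1.75 for Nkd1 and -1.68 for Cdh8. edgeR called neither, with an adjusted p of 0.171 for Ano10 and 0.175 for Slc24a3, and DESeq2 gave no adjusted p for them.

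Just outside the threshold, 13 intervals shared a limma adjusted p of 0.0576. Among them were Pcdh9, a protocadherin of neurons (14:93889285-93892118, promoter), and 4930557F10Rik (13:23312322-23314051, promoter), whose function is not given here. Pcdh9 had 15.00, 58.39 and 60.90 tags per 10 M in CaPS and 67.72, 234.72 and 146.51 in WT, a log2 change of -1.78 (SE 0.46). 4930557F10Rik had 7.50, 22.46 and 40.60 tags per 10 M in CaPS and 40.91, 132.63 and 111.32 in WT, a log2 change of -2.08 (SE 0.53). Aff1, a scaffold of the super elongation complex (5:103753173-103756464, intron 1), had 17.81, 8.98 and 37.83 tags per 10 M in CaPS and 40.21, 159.35 and 73.26 in WT. It also missed the threshold, with a log2 change of -2.02 (SE 0.54, limma adjusted p = 0.0576). CaPS and WT values did not overlap at any of these genes, and Aff1 alone of them had no H3K27me3 peak. With Cdh8 and Nkd1, these 3 had the most negative changes among intervals of at least 50 tags per 10 M on average whose value was lower in CaPS in all 3 experiments.

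Values were lower in CaPS in all 3 experiments at 42.2% of intervals (2669) and higher in all 3 at 1.11% (70). The 2669 were stronger, with a median of 71.6 tags per 10 M over the 6 libraries, against 11.2 for the 70 and 28.1 for all intervals. No H3K27me3 peak overlapped 15.0% of the 2669, 68.6% of the 70 and 42.7% of all. Of the 70, the intervals with an average of at least 50 tags per 10 M were 2. Irf2bpl, a regulator of transcription (12:86882134-86884654, exon 1), had 60.92, 179.67 and 68.28 tags per 10 M in CaPS and 57.84, 155.53 and 21.12 in WT. Igfbp3, a carrier of insulin-like growth factors (11:7212845-7214905, promoter), had 27.18, 96.58 and 45.77 tags per 10 M in CaPS and 15.52, 90.65 and 34.67 in WT. CaPS and WT values overlapped at both genes, and neither passed limma, with log2 0.64 (SE 0.46, limma adjusted p = 0.435) for Irf2bpl and 0.42 (SE 0.53, limma adjusted p = 0.679) for Igfbp3.

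A few strong intervals were not lower in CaPS on the fitted scale, and these were singled out after their values were seen. Lmo4, a LIM domain cofactor (3:144196364-144207441), had 248.36, 592.93 and 624.30 tags per 10 M in CaPS and 257.46, 653.60 and 289.11 in WT. Pura, which codes for a nucleic acid binding protein of neurons, had 384.26, 727.68 and 960.53 tags per 10 M in CaPS and 409.12, 747.11 and 376.97 in WT. Values of both were close to WT in experiments 1 and 2 and above it in experiment 3. Their log2 changes as deposited were 0.31 (SE 0.38) for Lmo4 and 0.41 (SE 0.38) for Pura, and limma called neither (limma adjusted p = 0.676 for Lmo4 and 0.561 for Pura). Relative to the other intervals they were higher: after scaling to the same sum, limma gave log2 1.08 for Lmo4 (adjusted p = 0.00530) and 1.18 for Pura (adjusted p = 0.00405). Skida1 was the third interval called higher in that fit (log2 0.55, limma adjusted p = 0.0310). As deposited it was lower in CaPS in experiments 1 and 2, with 1500, 4375 and 5601 tags per 10 M in CaPS and 2425, 6291 and 3845 in WT (log2 -0.22, SE 0.43, limma adjusted p = 0.791). The fit also had Cbln1 and Hoxa6 among those called lower. DESeq2 also called Lmo4, Pura and Irf2bpl higher, and of its 11 lower calls 9 lay on chromosome 8 and 2 on chromosome 6.

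By tags summed over the whole interval, the strongest were the Hox domains, blocks of chromatin over the clustered genes that pattern the body axis. They are also wide, from 68.2 kb for HoxD to 129.6 kb for HoxC, against a median interval of 1051.5 bases. Each cluster is mostly 1 interval that carries 1 gene name: Hoxa6 for HoxA, Hoxb5os for HoxB, Mir196a-2 for HoxC and Hoxd11 for HoxD. The HoxA domain (6:52150360-52268794) had 5412, 12719 and 15722 tags per 10 M in CaPS and 12697, 39103 and 22330 in WT. Its log2 change was -1.12 (SE 0.52, limma adjusted p = 0.234), and it lies on chromosome 6. The HoxC domain (15:102908418-103037996) had 5805, 13240 and 15722 tags per 10 M in CaPS and 10274, 29540 and 16981 in WT, a log2 change of -0.70 (SE 0.51). The deposited value of CaPS experiment 3 is the same for HoxA and HoxC and is the highest of that library. Whether it is an upper limit set in processing is not known, and if so it is a lower bound for both domains and their falls would be overstated. The HoxB domain (11:96265598-96357819) stood at log2 -0.75 and the HoxD domain (2:74648095-74716325) stood at -0.75. Neither passed (limma adjusted p = 0.402 for Hoxb5os and 0.374 for Hoxd11). Next came the Dlx5 and Dlx6 region, named for Dlx6os2 (6:6847894-6884668), with 1707, 4186 and 5318 tags per 10 M in CaPS and 3764, 11222 and 7145 in WT (log2 -0.996, SE 0.45, limma adjusted p = 0.221). In all 5 of these domains the value was lower in CaPS in each experiment, and the ranges of CaPS and WT overlapped. After scaling to the same sum HoxA stayed lower (log2 -0.34, limma adjusted p = 0.00405, subject to that doubt), while HoxB, HoxC and HoxD turned to 0.034, 0.082 and 0.025. Per kilobase of interval, the mean level over the 6 libraries lay between 118 tags per 10 M for HoxC and 152 for HoxA. The Hox domains were not the highest on that scale. Among other named intervals, Pax7 had 224 tags per 10 M per kilobase and Pitx1 218, while Aff1 had 17.1.

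The 14 lists of genes are described by the strongest interval of each gene, for 344 listed genes with an interval. Of these, 5 were called and 245 (71.2%) were lower in CaPS in all 3 experiments, against 9 and 2385 (44.3%) of all 5384 genes measured. Listed genes had stronger intervals, with a median of 248 tags per 10 M against 33.7 for all genes, and 311 of 344 overlapped an H3K27me3 peak, so no difference from other genes is read from these counts. The median log2 change of all genes was -0.68.

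**Figure D3:**
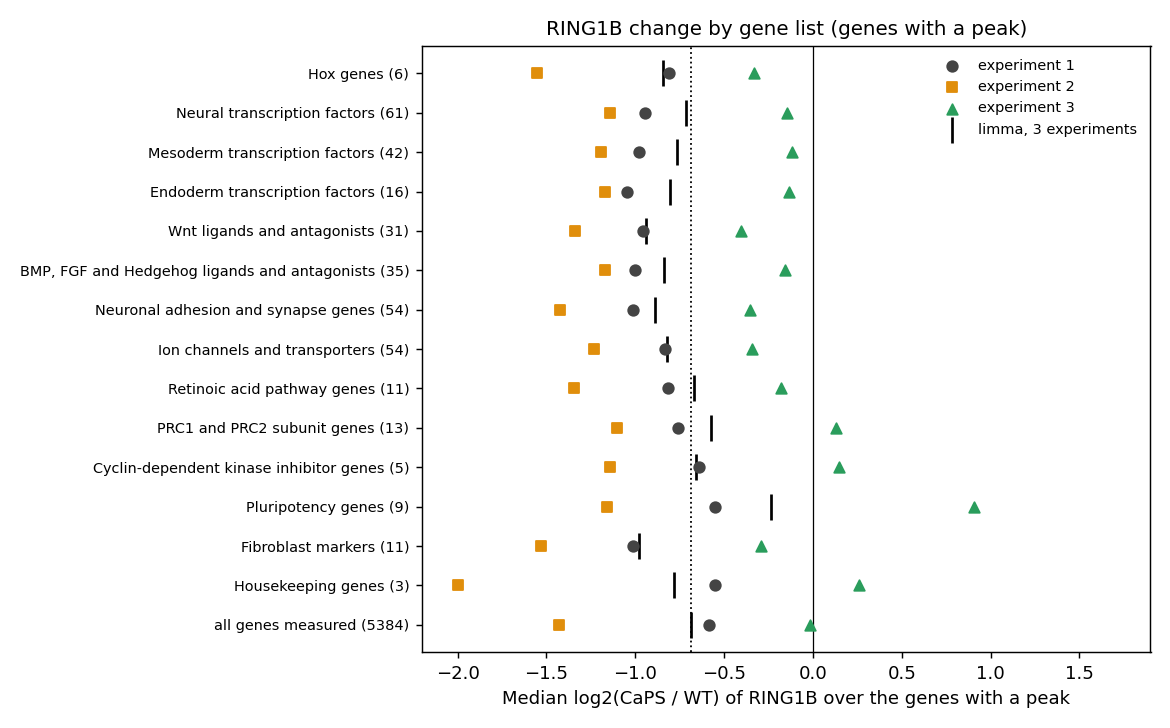
Median log2 ratio of RING1B, CaPS over WT, over the genes of each list (number with an interval in brackets) in experiments 1 to 3, with the median of limma's change (black bar) and its value for all 5384 genes (dotted line). Experiment 2 lies farthest to the left in every row, and the black bar of the pluripotency genes, at -0.24, lies farthest to the right.

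Transcription factor genes of the 3 germ layers had medians near that of all genes. Among neural factors, 0 of 61 passed, 47 were lower in all 3 experiments and the median log2 change was -0.71. Pax7, of the dorsal neural tube, had 1745, 4831 and 4988 tags per 10 M in CaPS and 3347, 10542 and 5270 in WT. Its log2 change was -0.71 (SE 0.44, limma adjusted p = 0.356). Pax2, of midbrain and kidney, had a log2 value of -0.68 (SE 0.44, limma adjusted p = 0.384). Of mesoderm factors 0 of 42 passed, 30 were lower in all 3 experiments and the median was -0.76. Pitx1, of the hind limb, had a log2 value of -0.71 (SE 0.42, limma adjusted p = 0.334). Of endoderm factors 0 of 16 passed, 13 were lower in all 3 and the median was -0.80. Nkx2-3, of gut and spleen, had 1238, 3439 and 4108 tags per 10 M in CaPS and 2637, 7464 and 4339 in WT (log2 -0.76, SE 0.43, limma adjusted p = 0.310). After scaling to the same sum, the medians of neural and mesoderm factors were 0.050 and 0.016, so their sign as well as the sign for Pax7, Pax2, Pitx1 and Nkx2-3 depends on the scaling. The Hox list had 6 of 39 genes with an interval named for them, 0 called and a median of -0.84, and all 6 were lower in all 3 experiments.

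Signalling genes had medians below that of all genes. Among Wnt ligands and antagonists, 1 of 31 passed (Nkd1), 27 were lower in all 3 experiments, and the median log2 change was -0.94. Wnt5a, a ligand of non-canonical Wnt signalling, had 666, 1384 and 1582 tags per 10 M in CaPS and 1418, 3409 and 2363 in WT. Its log2 change was -0.99 (SE 0.40, limma adjusted p = 0.180). Wnt1, a ligand of the midbrain and dorsal neural tube, had a log2 value of -0.71 (SE 0.40, limma adjusted p = 0.318), which turned to 0.071 after scaling to the same sum. Rspo3, which amplifies Wnt signalling, had the second most negative value of the list after Nkd1, at log2 -1.57 (limma adjusted p = 0.0576), and Wnt10a had the least negative, at -0.39; both were picked by their rank. Of BMP, FGF and Hedgehog ligands and antagonists 0 of 35 passed, 22 were lower in all 3 and the median was -0.84. Dhh, the Hedgehog ligand of the testis and of nerve sheaths, had 319, 698 and 838 tags per 10 M in CaPS and 765, 2181 and 1114 in WT (log2 -1.10, SE 0.38, limma adjusted p = 0.127). Fgf9, an FGF ligand, had a log2 value of -0.91 (SE 0.39, limma adjusted p = 0.204). Fgf4, an FGF ligand that ESC themselves make, had the highest value of the list, with 17.81, 42.67 and 34.51 tags per 10 M in CaPS and 12.70, 31.49 and 14.86 in WT (log2 0.68, SE 0.64, limma adjusted p = 0.559). The medians of the Wnt and of the BMP, FGF and Hedgehog lists stayed below 0 under scaling to the same sum (-0.16 and -0.064), centring per chromosome (-0.37 and -0.27), TMM factors (-0.31 and -0.22) and DESeq2 size factors (-0.28 and -0.18). So did the medians of the Hox, endoderm, neuronal adhesion, ion channel, fibroblast and housekeeping lists. The median of all genes was 0.064, -0.15, -0.042 and -0.024 in the same order of scalings.

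Of neuronal adhesion and synapse genes, 2 of 54 passed (Cdh8 and Cbln1), 41 were lower in all 3 experiments and the median log2 change was -0.89. The strongest of them, Pcdh7 and Pcdh10, both protocadherins, had log2 values of -0.76 (SE 0.39, limma adjusted p = 0.273) for Pcdh7, which turned to 0.015 after scaling to the same sum, and -0.81 (SE 0.39, limma adjusted p = 0.242) for Pcdh10. Of ion channels and transporters, 2 of 54 passed (Ano10 and Slc24a3), 38 were lower in all 3 and the median was -0.82. Kcna1, a voltage-gated potassium channel on chromosome 6, had 176.20, 480.63 and 464.30 tags per 10 M in CaPS and 520.56, 1689.82 and 765.92 in WT, with no overlap (log2 -1.36, SE 0.38, limma adjusted p = 0.0694). Slc32a1, the vesicular transporter of GABA and glycine, had a log2 value of -1.13 (SE 0.38, limma adjusted p = 0.118). Among retinoic acid genes 0 of 11 passed, 8 were lower in all 3 and the median was -0.67. Cyp26b1, which degrades retinoic acid, had 532, 1330 and 1367 tags per 10 M in CaPS and 1481, 3993 and 2016 in WT, with no overlap (log2 -1.21, SE 0.40, limma adjusted p = 0.113).

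Genes of the Polycomb complexes, of the cell cycle and of pluripotency had medians nearer 0 than all genes. Of PRC1 and PRC2 subunit genes 0 of 13 passed, 5 were lower in all 3 and the median log2 change was -0.58. Cbx8, which codes for another CBX subunit, had 1187, 3957 and 4047 tags per 10 M in CaPS and 2865, 9082 and 4822 in WT (log2 -0.91, SE 0.43, limma adjusted p = 0.240). Of cyclin-dependent kinase inhibitors 0 of 5 passed, 1 was lower in all 3 and the median was -0.66. Cdkn2a, a tumour suppressor gene that halts the cell cycle, had 524, 1193 and 1820 tags per 10 M in CaPS and 933, 2636 and 1647 in WT. It was higher in CaPS in experiment 3 alone (log2 -0.61, SE 0.39, limma adjusted p = 0.377), and its sign turned under scaling to the same sum (0.17), TMM factors (0.023) and DESeq2 size factors (0.057). Of pluripotency genes 0 of 9 passed, 2 were lower in all 3 and the median was -0.24, with experiment medians of -0.55, -1.16 and 0.91. Tbx3 had 948, 1786 and 2500 tags per 10 M in CaPS and 1526, 3704 and 1856 in WT (log2 -0.44, SE 0.40, limma adjusted p = 0.554), and its sign turned under the same scalings and under centring per chromosome. The pluripotency median turned to 0.54 after scaling to the same sum, 0.38 after centring each chromosome, 0.40 with TMM factors and 0.43 with DESeq2 size factors, and the Polycomb and kinase inhibitor medians turned to 0.20 and 0.11 after scaling to the same sum. The medians of the retinoic acid and kinase inhibitor lists lay on either side of that of all genes depending on the scaling.

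Marker genes of the cell types in the dish were read for RING1B only, as the assay measures no RNA. Of 9 ESC markers 2 had an interval (Klf4 and Esrrb), with a summed level of 150 to 256 tags per 10 M in CaPS and 299.5 to 642 in WT. Of 12 markers of feeder fibroblasts 6 had an interval, with 811 to 1910 tags per 10 M in CaPS and 1687 to 4995 in WT. Pdgfra, the strongest, had a log2 value of -0.98 (SE 0.39, limma adjusted p = 0.177). The 11 genes of the longer fibroblast list had a median of -0.98, and 0 passed. The 3 housekeeping genes with an interval had a median of -0.78, with B2m at -0.75 (SE 0.52, limma adjusted p = 0.417), which turned to 0.016 after scaling to the same sum. Shares of feeder cells were not measured, and their part in these values was not tested.

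Peak classes moved differently in experiment 2 than in experiments 1 and 3. In experiments 1 and 3 the strongest intervals, quintile 5 by the mean of the 6 libraries, had the lowest ratios, and in experiment 2 they had the highest. Median log2 ratios of quintile 5 were -0.99, -1.22 and -0.31 in experiments 1, 2 and 3, and those of quintile 1 were -0.14, -1.57 and 0.21. That difference, quintile 5 minus quintile 1, was -0.85, 0.34 and -0.52, with a mean of -0.34 ± 0.62 (SD, n = 3; exact sign-flip p = 0.5). Of quintile 5, 82.2% (1040 of 1265) were lower in all 3 experiments, against 21.1% (267 of 1266) of quintile 1. The part of counting error in these shares was not tested.

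**Figure D4:**
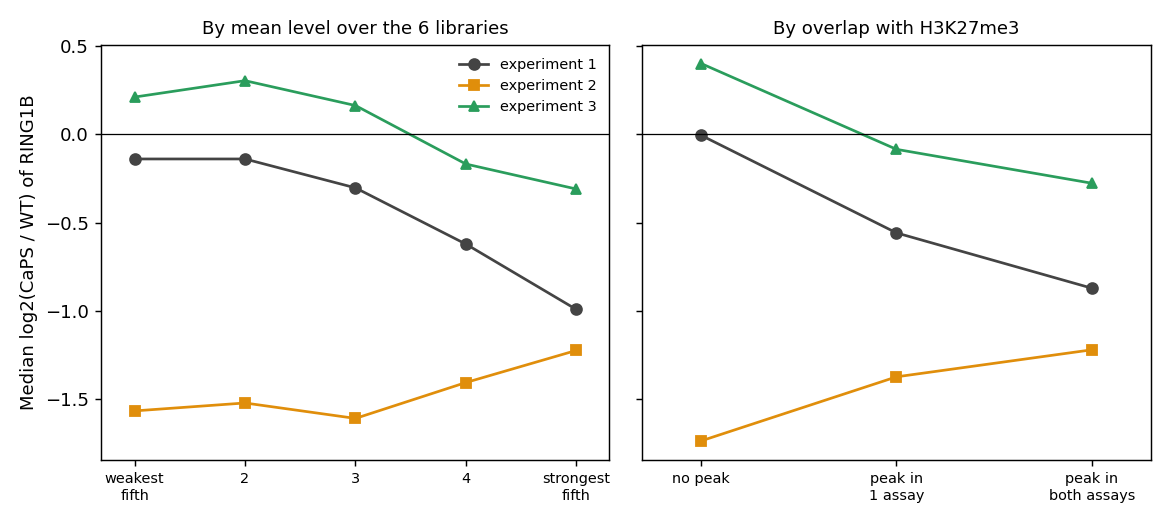
Median log2 ratio of RING1B, CaPS over WT, in experiments 1 to 3 for 5 classes of interval strength (left) and for overlap with H3K27me3 peaks (right). In the right panel the lines of experiments 1 and 3 fall and the line of experiment 2 climbs. In the left panel this holds from the middle class to the strongest, and the weaker classes show no steady trend. The strongest class lies at -0.99, -1.22 and -0.31.

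Overlap with H3K27me3 gave the same pattern. The 2435 intervals with an H3K27me3 peak in both assays had median log2 ratios of -0.87, -1.22 and -0.28, and the 2699 without one had 0.00, -1.74 and 0.40. The difference of -0.87, 0.52 and -0.68 averaged -0.34 ± 0.75 (SD, n = 3; exact sign-flip p = 0.5). It had the same signs within each quintile of strength, where experiment 1 ran from -0.52 to -0.32, experiment 2 from 0.46 to 0.81 and experiment 3 from -0.69 to -0.37. The groups there were uneven, with 140 marked against 887 unmarked intervals in quintile 1 and 1114 against 29 in quintile 5. The median interval of quintile 1 rested on 2 tags in CaPS of experiment 1 and on 1 tag in CaPS of experiment 2. Intervals over 4 kb (724) had -0.99, -1.18 and -0.25, against -0.25, -1.57 and 0.19 for those under 2 kb (4457). Expressed as shares of the tags inside all intervals, those without H3K27me3 took 7.39%, 5.75% and 6.59% in CaPS and 4.28%, 7.97% and 4.55% in WT. The CaPS share was thus larger in experiments 1 and 3 and smaller in experiment 2 (exact sign-flip p = 0.75). Log2 ratios correlated across intervals with Pearson's r of 0.37 between experiments 1 and 3, -0.09 between 1 and 2 and -0.08 between 2 and 3, where intervals share their libraries and are no replicates. Promoter intervals (1998) had a median of -0.63 and intron intervals (2204) -0.68.

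CBX7 was measured at the same 6326 intervals in libraries of the same experiment numbers. The median log2 ratio was -0.53, -1.42 and 0.00 for RING1B and -0.91, -1.14 and -0.44 for CBX7 in experiments 1, 2 and 3. In its own table limma called 2801 intervals lower (44.3%) and 4 higher (0.0632%) for CBX7, all 9 intervals called for RING1B among the lower ones. Those counts are for values as deposited, and no other scaling was run for CBX7. CBX7 tags inside the intervals made up 2.63%, 7.10% and 3.63% of the CaPS libraries and 6.40%, 17.0% and 5.57% of the WT libraries. In CaPS of experiment 2, with 2.63 M tags, 744 intervals had no CBX7 tag. At Cbln1 the log2 change was -1.61 for RING1B and -1.93 for CBX7. Comp had -1.61 for RING1B and -1.97 for CBX7, and Nkd1 had -1.95 for RING1B and -1.64 for CBX7. The HoxA domain had -1.12 for RING1B, which was not called, and -1.35 for CBX7 (limma adjusted p = 0.0171). Irf2bpl had 0.64 for RING1B and 0.34 for CBX7, and Igfbp3 had 0.42 for RING1B and -0.51 for CBX7, none of them called. Across intervals the RING1B and CBX7 log2 ratios of 1 experiment correlated with Pearson's r of 0.28, 0.02 and 0.56 in experiments 1, 2 and 3. No test was made across the 2 tables, and the difference between the antibodies was not tested.

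Another pair of ESC libraries, from experiment 5, entered none of the fits above. It stands in a table of its own, where 5335 of the 6326 intervals overlap a peak. Each interval takes the value of the peak that overlaps it most, in the bounds of that peak, so intervals can share a value. RING1B was lower in CaPS at 51.1% of them, with a median log2 ratio of -0.019. Experiment 3 had 50% and 0.00, but over all 6326 intervals in their own bounds. Of the 9 called intervals 7 were lower there, including all 6 of chromosome 8. Chromosome 8 as a whole had a median log2 ratio of -0.38 in that pair. Outside it only Slc24a3 was lower, with 35.13 tags per 10 M in CaPS and 40.33 in WT. Cdh8 had 202.52 tags per 10 M in CaPS and 355.64 in WT, Cbln1 had 830.74 in CaPS and 1340.06 in WT, and Fam155a had 95.06 in CaPS and 214.48 in WT. Pparg had 154.99 tags per 10 M in CaPS and 131.99 in WT, and Ano10 had 49.60 in CaPS and 36.66 in WT, so both were higher in CaPS. Irf2bpl had 90.93 tags per 10 M in CaPS and 34.83 in WT, Lmo4 had 597.22 in CaPS and 269.48 in WT, and Igfbp3 had 18.60 in CaPS and 42.16 in WT. With 1 library per genotype there is no test.

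RING1B CUT&RUN, in which a nuclease tethered to the antibody cuts the bound DNA out of unfixed nuclei, gave 1 library per genotype. For 5300 intervals the value was taken from the CUT&RUN peak that overlaps them most, in the bounds of that peak. It was lower in CaPS at 94.6% of them, with a median log2 ratio of -0.69. All 9 called intervals were lower. The ratio of CaPS to WT was 0.370 at Cdh8 (95% exact interval for counting error only, 0.253 to 0.528), 0.467 at Cbln1 (0.390 to 0.557), 0.341 at Pparg (0.228 to 0.495) and 0.201 at Pcdh9 (0.0971 to 0.377). At Nkd1 it was 0.612 (0.323 to 1.11) and at Slc24a3 0.712 (0.448 to 1.10), intervals that include 1. The HoxA domain had 0.772 (0.748 to 0.797) and HoxC 0.875 (0.846 to 0.904). Igfbp3 had 0.435 (0.283 to 0.650) and Irf2bpl 0.648 (0.410 to 0.998). In ChIP both were above WT in experiments 1 to 3, and in experiment 5 Igfbp3 was below WT and Irf2bpl above it. CUT&RUN has no replicate here.

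Chromosomes 6, 8 and 14 differed from the other autosomes in the same direction in each ChIP pair. Relative to the other autosomes, the median log2 ratio of chromosome 8 (389 intervals) differed by -0.10, -0.36 and -0.19 in experiments 1, 2 and 3 and by -0.38 in experiment 5. That of chromosome 6 (383 intervals) differed by -0.23, -0.29 and -0.33, and by -0.23 in experiment 5. That of chromosome 14 (225 intervals) differed by -0.16, -0.089 and -0.13, and by -0.16 in experiment 5. An exact sign-flip test over experiments 1 to 3 gave p = 0.25 for each, the smallest possible, and these chromosomes were picked with their values known. In CUT&RUN the differences were -0.067 for chromosome 8, -0.025 for chromosome 6 and -0.19 for chromosome 14. Among the 40 lower calls (0.748% of 5351) that a minimum average of 10 tags per 10 M gave, 15 lay on chromosome 8 and 13 on chromosome 6. Leaving both chromosomes out before the fit left 0 calls (925 lower at an unadjusted p under 0.05), and centring each library per chromosome also left 0 (236 at an unadjusted p under 0.05). After subtracting the median of their chromosome, Nkd1 stood at log2 -1.07, Cdh8 at -0.97 and Cbln1 at -0.73. What sets these chromosomes apart was not tested.

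**Figure D5:**
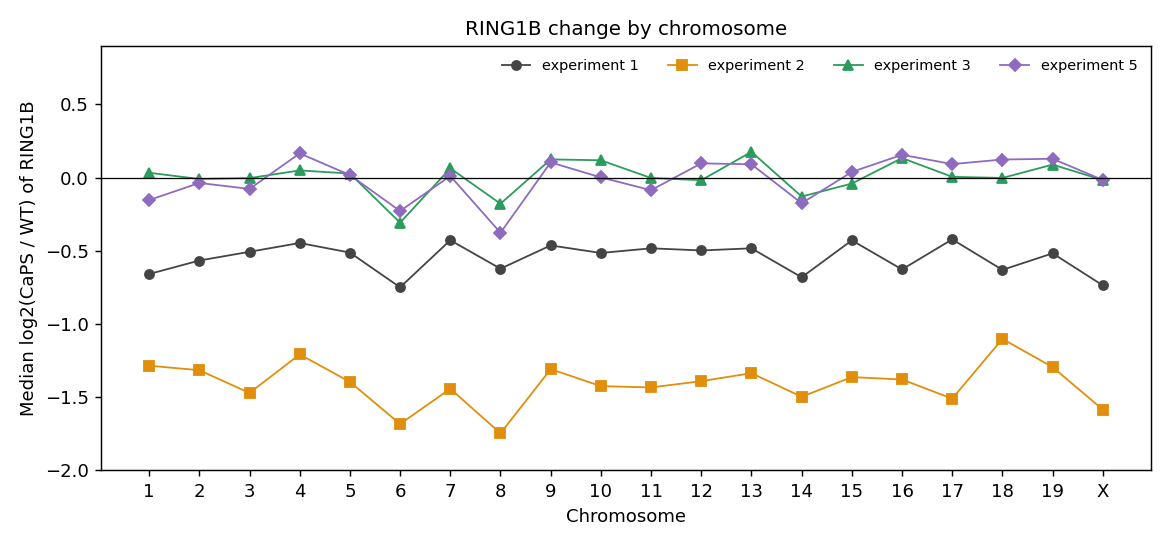
Median log2 ratio of RING1B, CaPS over WT, by chromosome in experiments 1, 2, 3 and 5 (1 line each). Chromosomes 6 and 8 dip in each line, with chromosome 8 at -0.62, -1.75, -0.18 and -0.38.

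One interval stood apart by experiment rather than by genotype and was picked for that. At Cbx2, which codes for another CBX subunit of PRC1 (11:119027603-119028745), RING1B had 565.14, 449.19 and 24.73 tags per 10 M in CaPS and 444.38, 161.25 and 44.06 in WT. CBX7 had 624.45, 201.53 and 37.35 tags per 10 M there in CaPS and 371.56, 373.97 and 25.17 in WT. Experiments 1 and 2 were thus high and experiment 3 low for both antibodies and both genotypes, and neither an H3K27me3 peak nor a CUT&RUN peak overlapped it. The limma change was 0.34 (SE 0.40, adjusted p = 0.665). Without experiment 3 it was the 1 interval that limma called higher (log2 0.91, adjusted p = 0.00262), or 0.0158% of those tested. In experiment 5 RING1B had 99.19 tags per 10 M there in CaPS and 329.97 in WT.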

How the data were processed

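The deposited signal values are tags per peak interval scaled by the authors to 10 M tags of each library, per the file headers (HOMER annotatePeaks on mm10). Peaks were called over input, per the labels' series design. Tools named in the submitters' processing notes are HOMER 4.10.4, SAMtools 1.9, Bowtie2 2.3.4.3 and cutadapt 1.14, with the builds mm10 and dm6. Per the labels' protocols Drosophila chromatin was added as a spike-in, and no source used here states whether the header totals hold a correction for it. Value times header total gave whole read ends (0.5 tag each, tolerance 0.1) for 100% of the RING1B values, and these read ends were used in the edgeR and DESeq2 alternatives only. Intervals and floors cover counting error only.

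In R 4.3.3, limma 3.58.1 fitted log2(value + 1) on genotype with the experiment number as a block, with a trended prior and Benjamini-Hochberg adjustment over 6326 intervals. Fold changes are on that scale, and the added 1 draws single ratios of weak intervals toward 0. At the called intervals with a count of 0 the limma change was still larger than that of edgeR on library totals. It was log2 -2.89 in limma and -2.07 in edgeR at Ano10, and -2.91 and -2.22 at Slc24a3. The block was used because the series design states that comparisons were made between experiments of the same time. Deviations of same-numbered CaPS and WT libraries from their group means correlated with Pearson's r of 0.10, -0.02 and 0.23. The CaPS libraries of experiments 1 and 3 correlated best with the WT library of their own number, and that of experiment 2 with another. edgeR 4.0.16 and DESeq2 1.42.0 gave alternatives, and the fits were tested on simulated data. The simulation held no shift of all intervals between genotypes, unlike these data, so it does not show how the fits behave on them. Single values were compared with exact sign-flip permutation tests over 3 experiments, which cannot go below 0.25.

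Named genes are the called intervals, up to 5 of the largest changes each way at a mean of at least 50 tags per 10 M with the same sign in all 3 experiments, the strongest 1 of each list (2 for lists with over 20 measured members), and the 5 strongest intervals; some of these are not reported here. Others were chosen after their values were seen, as stated. Each gene is represented by its strongest interval within 10 kb of its start. The members and lists were chosen with earlier results of these data known. Promoter sequences are from RefSeq on GRCm38.p6. Alternatives were other pseudocounts, filters, priors, scalings and tools, no block, leaving out each experiment, and leaving out chromosomes 6 and 8. A further CUT&RUN file had 2 columns that matched no sample and were not used, and data of other cell types were not analysed here.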

Additional observations from a re-analysis of the deposited data

How the results depend on the processing

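The 9 lower calls depend on the settings. The count was 9 as reported, 40 with a minimum mean of 10 tags per 10 M, 60 with a robust prior, 5 with edgeR on library totals and 3 after scaling to the same sum. It was 0 with no replicate block (adjusted p of 0.812 for each of the 9; 134 at an unadjusted p under 0.05), with centring per chromosome (236), without a trend in the prior (476), with edgeR and TMM factors (289), without chromosomes 6 and 8 (925) and with tags not scaled to 10 M (11), the last of which was chosen after seeing the data. Leaving out 1 experiment gave 0 to 1098 lower calls and 0 to 1 higher calls. Without experiment 3 all 9 were called, without experiment 2 the calls kept 1 of them, and without experiment 1 they kept none. Higher calls numbered 0 as reported and 3 both after scaling to the same sum and with DESeq2. The median log2 ratio was -0.67 as reported, -1.001 to -0.26 with 1 experiment left out, and 0.074 after scaling to the same sum. None of the 9 changed sign under any of these settings. Among named genes that were not called, scaling to the same sum turned the sign for Pax7 (0.065), Pax2 (0.10), Pitx1 (0.065), Nkx2-3 (0.017), Wnt1 (0.071), Pcdh7 (0.015), Cdkn2a (0.17), Tbx3 (0.34), B2m (0.016), Mir196a-2 (0.082), Hoxb5os (0.034) and Hoxd11 (0.025). TMM factors turned Cdkn2a (0.023) and Tbx3 (0.20), DESeq2 size factors turned Cdkn2a (0.057) and Tbx3 (0.23), and centring per chromosome turned Tbx3 (0.053). The mean differences between classes of strength, width and H3K27me3 kept their sign with a pseudocount of 5 and with other limits of width and H3K27me3 overlap, and the CUT&RUN median kept its sign with another overlap limit; no other setting was run for these. Causes of these changes were not tested. The number of tags limits weak intervals most in CaPS of experiment 2, where 317 intervals had none.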

Other observations

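Some values belong to no comparison above. The strongest 5 intervals held 6.11%, 6.08% and 7.13% of the tags inside all intervals in the CaPS libraries of experiments 1, 2 and 3, and 6.49%, 6.51% and 7.47% in WT. Levels of at least 50 tags per 10 M were reached by 17.5%, 31.4% and 30.0% of intervals in CaPS and by 26.4%, 60.0% and 31.8% in WT. At Bmpr2, which codes for a BMP receptor (1:59762435-59763383), RING1B had 16.87, 11.23 and 39.86 tags per 10 M in CaPS and 2.82, 111.64 and 15.38 in WT. Experiment 2 there ran against experiments 1 and 3, and Bmpr2 was the 1 interval that limma called higher without experiment 2 (log2 1.77, adjusted p = 0.0281). With all experiments its log2 value was 0.11 (SE 0.68, limma adjusted p = 0.942). Its WT value in experiment 1 lay below the 4.23 tags per 10 M that 3 tags make in that library. The ratio of experiment 1, and with it the call, rests on that low count.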
